A study of Liolaemus parthenos with 3 samples.

Results

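Short interspersed elements (SINEs) made up 3 of the 31 retrotransposon subfamilies counted in the parthenogenetic lizard Liolaemus parthenos: the groups SINE2, SINE3 and SINEU. They were taken by name from a table of estimated reads per subfamily, and 5 of the 480 assembled transcripts with quantification values carry a SINE name as well (2 of SINE2, 3 of SINE3 and 0 of SINEU). All libraries came from 1 adult collected in the field, whose brain, ovary and liver each gave 1 unstranded total RNA library. All 3 tissues share this animal, and no treatment is named. The study used these tissues to try a pipeline that measures active transposable elements without a reference genome. Because each tissue is 1 library of 1 animal, no test between tissues was possible. Intervals are 95% counting intervals of reads, which leave out the spread between animals, and each difference compares libraries. No tissue could be checked against its marker genes, since the files name elements and no genes. In bulk tissue, fewer cells that transcribe an element and fewer transcripts per cell cannot be told apart.

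SINEs are short elements without a protein of their own. Those that start like transfer RNA or 5S ribosomal RNA genes are transcribed by RNA polymerase III from an internal promoter. SINEs are copied into the genome by the reverse transcriptase of long interspersed elements (LINEs), whose tails many SINEs resemble. The groups differ in the gene their head comes from. SINE2 elements start like transfer RNA genes, and the Sauria SINEs of lizards and snakes are of this kind and share their tail with the LINE BovB. SINE3 elements, described in zebrafish, start like 5S ribosomal RNA genes and have a tail related to CR1 LINEs. SINEU elements, described in crocodilians, start like the genes of U small nuclear RNAs. SINE sequences also lie in introns and untranslated regions of many genes, so a read from a SINE need not come from a transcript of the element itself.

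The subfamily table held 5468656 reads (Brain column), 1143616 (Ovary column) and 1717904 (Liver column), and SINEs took 92.4%, 79.0% and 84.6% of these. The quantification files held 16405 reads (brain record), 4651 (ovary record) and 10644 (liver record). File names and sample records cross for ovary and liver, since each of these records carries a file named after the other tissue. Table values are therefore given by column and file values by record. Every statement that sets ovary against liver, or brain against either of them alone, rests on these names. Only statements that hold for brain against both others do not. A group was called higher or lower between columns where its share differed at least 2-fold, both columns together held at least 20 reads and the interval of the ratio lay on one side of 1.

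SINE3 counted 4999773 reads (Brain), 887927 (Ovary) and 1448074 (Liver). It was the most abundant subfamily in each column and provided 98.9%, 98.3% and 99.7% of all SINE reads there. What was left for the other 30 subfamilies was 8.57% of reads in Brain, 22.4% in Ovary and 15.7% in Liver. The part of 5S ribosomal RNA in these reads was not tested. As shares of all reads, SINE3 differed by less than 2-fold between columns: 1.18-fold higher in Brain than in Ovary (1.17 to 1.18), 1.08-fold higher in Brain than in Liver (1.08 to 1.09) and 1.09-fold lower in Ovary than in Liver (1.08 to 1.09). Shares this close to the whole cannot differ by 2-fold. Set against LINE and LTR reads in place of all reads, SINE3 had log2 ratios of 1.71 (Brain over Ovary) and 1.14 (Brain over Liver).

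SINE2 counted 51247 reads in Brain, 8885 in Ovary and 2669 in Liver. These were 0.937% (0.929 to 0.945), 0.777% (0.761 to 0.793) and 0.155% (0.150 to 0.161) of all reads. By reads SINE2 ranked 4 of 31 in Brain, 11 in Ovary and 12 in Liver. The Liver column stood apart, with a share 6.03-fold higher in Brain than in Liver (5.80 to 6.27) and 5.001-fold higher in Ovary than in Liver (4.79 to 5.22). In the deposited log2 CPM these log2 ratios were 0.11 and -0.30, and with TMM factors that of Ovary over Liver was 0.84, all within 2-fold. Brain was 1.21-fold higher than Ovary (1.18 to 1.23). With SINE3 out of the total, the estimated counts gave a graded order. SINE2 took 10.9% of the remaining reads in Brain (10.8 to 11.0), 3.48% in Ovary (3.40 to 3.55) and 0.989% in Liver (0.952 to 1.03). SINE2 was then 3.15-fold higher in Brain than in Ovary (3.08 to 3.22) and 11.0-fold higher in Brain than in Liver (10.6 to 11.5). Ovary was 3.51-fold higher than Liver (3.36 to 3.67). These intervals cover counting error alone. Differences of at least 2-fold were common without SINE3. They were called for 37% of 27 subfamilies between Brain and Ovary, 74.1% of 27 between Brain and Liver and 60% of 25 between Ovary and Liver. The grade did not hold in the deposited log2 CPM, where Ovary lay below Liver (log2 ratio -0.30) and Brain was little above Liver (0.11).

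SINEU had the fewest reads of the 3 groups and another order of tissues. It counted 3120 reads in Brain, 6518 in Ovary and 2147 in Liver, so the smallest column of the table held the most SINEU reads. As shares of all reads these were 0.0571% (0.0551 to 0.0591), 0.570% (0.556 to 0.584) and 0.125% (0.120 to 0.130). By reads SINEU ranked 17 of 31 in Brain, 12 in Ovary and 13 in Liver. Its share was 9.99-fold lower in Brain than in Ovary (9.57 to 10.4), 2.19-fold lower in Brain than in Liver (2.07 to 2.32) and 4.56-fold higher in Ovary than in Liver (4.34 to 4.79). With TMM factors, median-of-ratios factors and the deposited log2 CPM, the log2 ratio of Ovary over Liver was 0.71, 0.90 and 0.13, within 2-fold, as was that of Brain over Liver in the log2 CPM (-0.93). Without SINE3, SINEU took 0.665% of reads in Brain (0.642 to 0.689), 2.55% in Ovary (2.49 to 2.61) and 0.796% in Liver (0.762 to 0.830). On this total the Ovary column stayed apart, 3.20-fold above Liver (3.05 to 3.36), and Brain was 3.83-fold below Ovary (3.67 to 3.999). Brain and Liver were within 1.20-fold (1.13 to 1.26). With TMM factors Brain was instead the column apart, with log2 ratios of -2.29 over Ovary and -1.58 over Liver. Median-of-ratios factors gave -2.44 and -1.54, and the deposited log2 CPM -1.06 and -0.93.

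**Figure D1:**
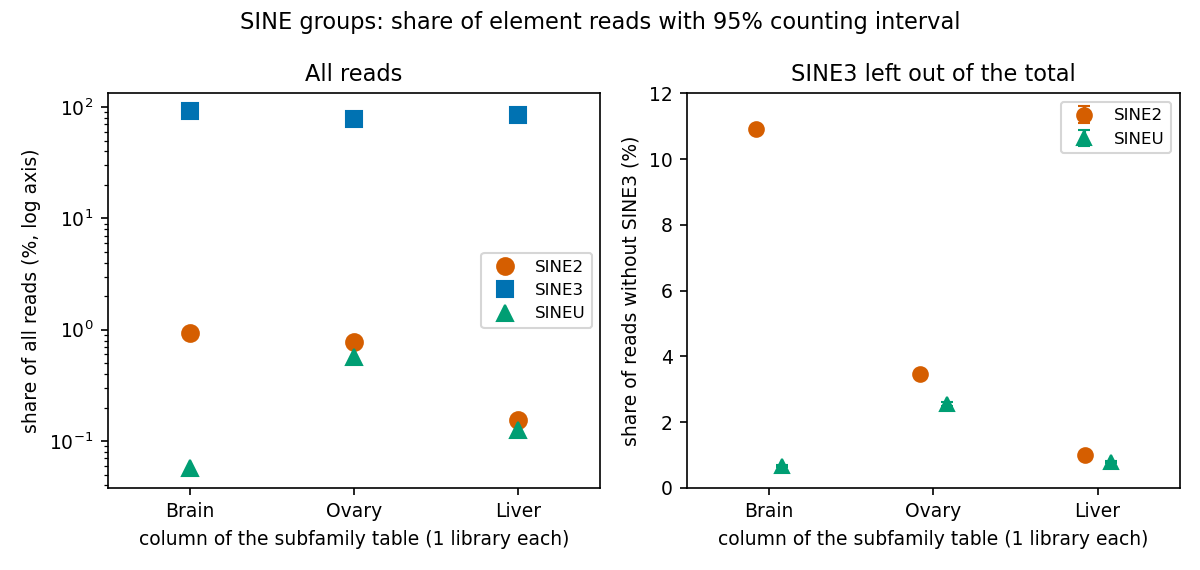
Share of reads of SINE2, SINE3 and SINEU in each column of the subfamily table (1 library each), as percent of all reads on a log axis (left) and as percent of reads without SINE3 on a linear axis (right). Most 95% counting intervals are smaller than the symbols. Without SINE3, SINE2 stands at 10.9% in Brain, 3.48% in Ovary and 0.989% in Liver, while SINEU is highest in Ovary at 2.55%.

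With all reads SINE3 could not be called in any pair, its shares being too close to the whole, so only SINE2 and SINEU could be. Between Brain and Ovary, SINEU was called lower and SINE2 was not called, where 57.1% of the 28 subfamilies with enough reads were called. Without SINE3 both remaining groups were called, SINE2 higher and SINEU lower, against 37% of 27 subfamilies. Between Brain and Liver, SINE2 was called higher and SINEU lower, against 42.9% of 28, and without SINE3 SINE2 was called higher and SINEU was not called, against 74.1% of 27. Between Ovary and Liver, SINE2 and SINEU were called higher with all reads, against 69.2% of 26, and again without SINE3, against 60% of 25. Over the subfamilies tested, the median log2 ratio was -1.04 (Brain/Ovary), 0.29 (Brain/Liver) and 1.54 (Ovary/Liver). The medians of the 3 SINE groups in these pairs were 0.24, 0.12 and 2.19. The first and second of these are the values of SINE3 itself and the last is that of SINEU, so they describe no common tendency of SINEs. Without SINE3 the medians over the subfamilies tested were 0.34, 1.20 and 1.07, so that of Brain/Ovary turned sign. Those of SINE2 and SINEU were -0.14, 1.60 and 1.75. The -0.14 lies between 1.65 for SINE2 and -1.94 for SINEU and describes neither. With shares of calls this high, the number of SINE groups called says little about SINEs, and SINE2 and SINEU differed from each other in sign when Brain was set over either other column.

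Other scalings changed how large these differences were. The log2 ratio of SINE2 in Brain over Ovary stayed positive under all 5 scalings of the tables, between 0.27 and 1.65. It was within 2-fold, and so not called, with all reads (0.27) and in the deposited log2 CPM (0.41). SINEU stayed lower in Brain than in Ovary under all 5, between -3.32 and -1.06. In Brain over Liver the log2 ratio of SINE2 also stayed positive, but it was 2.59 with all reads and 0.11 in the deposited log2 CPM. That of SINE3 in Brain over Liver turned negative with TMM factors (-0.33), with median-of-ratios factors (-0.29) and in the deposited log2 CPM (-1.07). Only the last of these passed 2-fold. In Ovary over Liver SINE3 stayed negative, with log2 ratios between -1.60 and -0.12. SINE2 turned to -0.30 in that pair in the deposited log2 CPM, and SINEU was at 0.13.

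**Figure D2:**
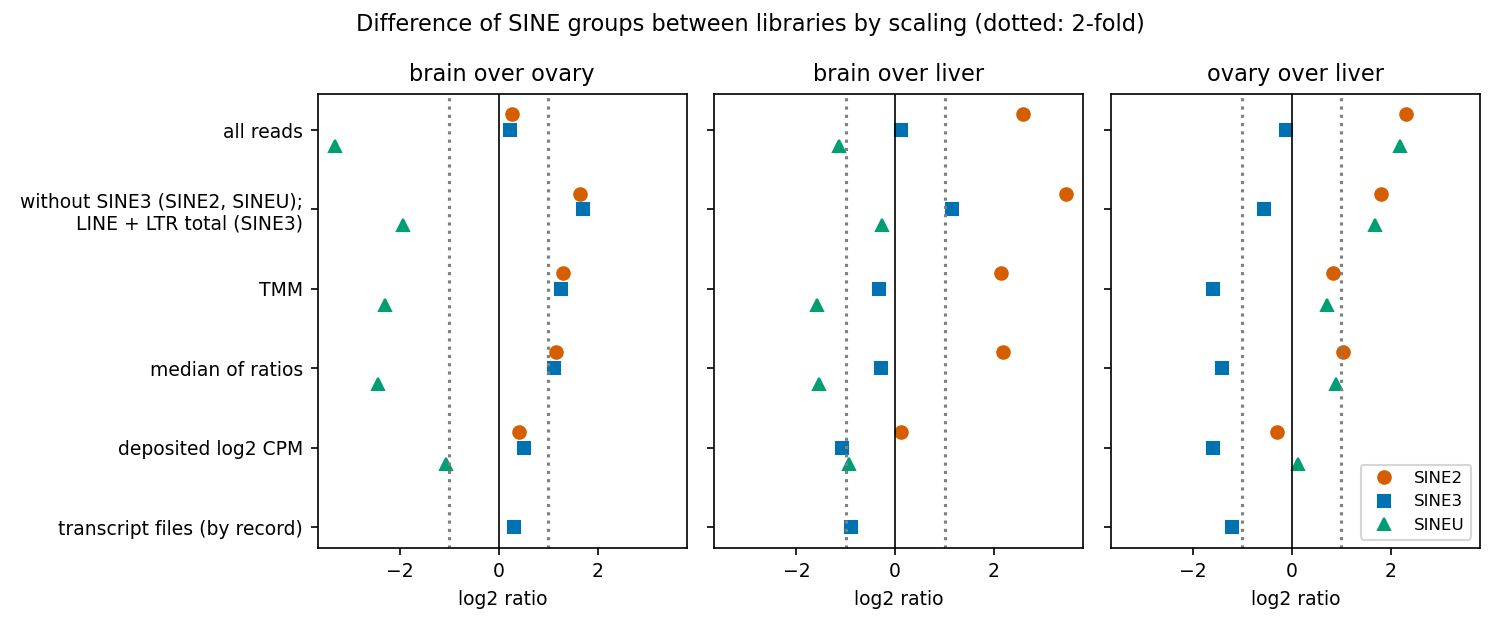
Log2 ratio of each SINE group between columns (horizontal axis, 1 panel per pair of tissues) under each scaling (rows). Dotted lines mark a 2-fold difference. The bottom row is from the transcript files and holds SINE3 alone, from 3 of its 241 transcripts. In the Brain over Ovary panel SINEU lies between -3.32 and -1.06 in each row that has it, and SINE2 between 0.27 and 1.65.

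The ratio of one SINE group to another within a column does not depend on the total used. Its absolute size also reflects the lengths of the elements, so its differences between columns are what can be read. SINE2 had 16.4 reads per SINEU read in the Brain column, against 1.36 in Ovary and 1.24 in Liver. Brain was thus 12.1-fold above Ovary (11.5 to 12.7) and 13.2-fold above Liver (12.4 to 14.1), while Ovary and Liver differed by 1.10-fold (1.03 to 1.17). SINE3 had 97.6 reads per SINE2 read in Brain and 99.9 in Ovary, a ratio of 0.976 (0.954 to 0.999), against 543 in Liver. The balance of SINE3 and SINE2 was therefore nearly equal in Brain and Ovary, and 5.56-fold lower in Brain than in Liver (5.35 to 5.78). For SINE3 against SINEU the columns were at 1603 reads per read in Brain, 136 in Ovary and 674 in Liver.

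In the deposited log2 CPM the column that stood apart in each of these balances was the same, with a smaller gap to it, except that SINE3 minus SINEU had Brain and Liver close together. SINE2 minus SINEU was 2.44 in Brain, 0.96 in Ovary and 1.40 in Liver on that scale, against 4.04, 0.45 and 0.31 as log2 ratios of counts. Brain was highest in both. SINE3 minus SINE2 was 7.09 in Brain, 6.98 in Ovary and 8.27 in Liver, against 6.61, 6.64 and 9.08 for counts, with Liver highest in both. SINE3 minus SINEU was 9.53 in Brain, 7.94 in Ovary and 9.66 in Liver, against 10.7, 7.09 and 9.40 for counts. Ovary was lowest in both, but the order of Brain and Liver turned.

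**Figure D3:**
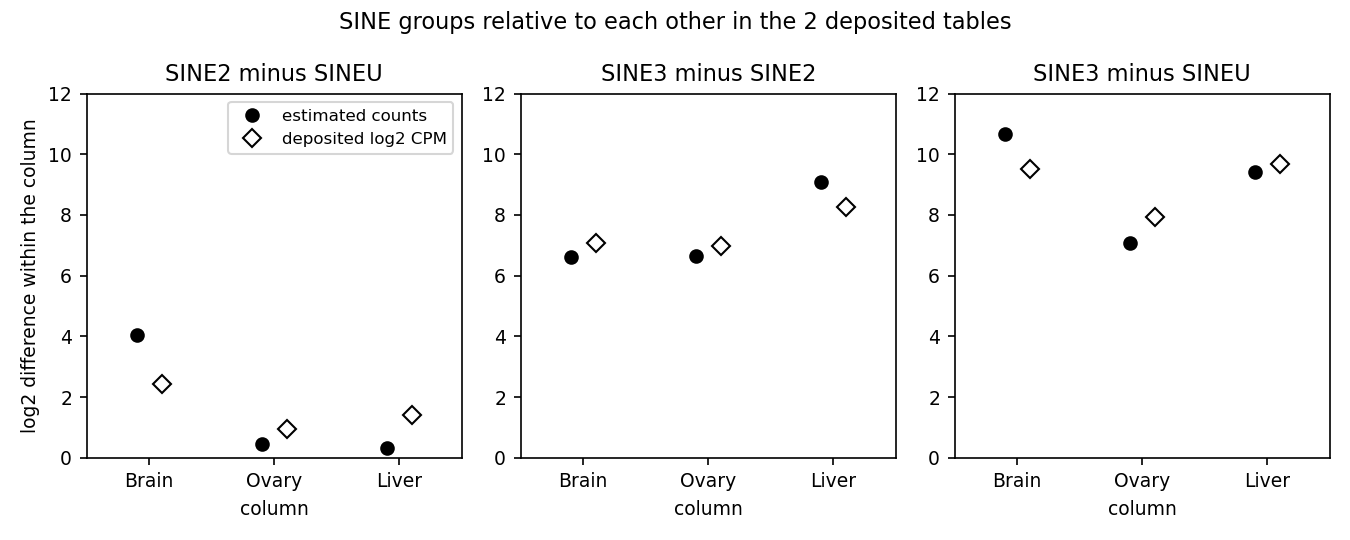
Log2 difference between SINE groups within each column of the subfamily table, from the estimated counts (filled circles) and from the deposited log2 CPM (open diamonds), with 1 library per column. SINE2 minus SINEU is highest in Brain in both tables (4.04 and 2.44), and SINE3 minus SINE2 is highest in Liver in both (9.08 and 8.27).

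The log2 CPM table is not a plain rescaling of the counts. In a plain rescaling, the deposited value minus the log2 count would be the same for every subfamily of a column. Over the 27 subfamilies of that table this offset ran from -3.23 to -1.08 in Brain (median -2.15), from -2.86 to -0.38 in Ovary (median -0.99) and from -0.81 to 1.003 in Liver (median -0.27). SINE2 had the lowest offset of all 27 in Brain, -3.23, was near the median in Ovary with -1.12, and had the second highest in Liver, 0.92. SINEU lay above the median in Brain (-1.63) and below it in Ovary (-1.63), and SINE3 lay below it in Brain (-2.75) and above it in Liver (0.11). The step of the authors' processing that gave these offsets was not tested.

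LINEs, the source of the enzyme that SINEs depend on, summed over 15 subfamilies to 228343 reads in Brain, 103666 in Ovary and 150271 in Liver. CR1, the LINE family that is widespread in reptiles and birds, had the most LINE reads in every column, 143550, 64117 and 122676. SINE3 had 21.9 reads per LINE read in Brain, 8.57 in Ovary and 9.64 in Liver. Brain was therefore 2.56-fold above Ovary (2.54 to 2.58) and 2.27-fold above Liver (2.26 to 2.29), the second of which was 1.12-fold (1.11 to 1.14) with CR1 left out of the LINE reads. SINE2 had 0.224 reads per LINE read in Brain, 0.0857 in Ovary and 0.0178 in Liver. This puts Brain 2.62-fold above Ovary (2.56 to 2.68) and 12.6-fold above Liver (12.1 to 13.1), or 6.25-fold above Liver without CR1 (5.996 to 6.51). Ratios to LINE reads are from the estimated counts and were not computed in the deposited log2 CPM. There the log2 ratio of SINE2 in Brain over Liver was 0.11, against 2.59 with all reads. That of SINE3 in Brain over Liver was -1.07 there, against 0.12 with all reads. SINEU had 0.0137 reads per LINE read in Brain, 0.0629 in Ovary and 0.0143 in Liver. Brain was 4.60-fold below Ovary (4.41 to 4.81), and its ratio to Liver, 0.956 (0.905 to 1.01), had an interval that included 1. Without CR1 it was 2.11-fold lower in Brain than in Liver (1.998 to 2.24).

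Among single LINEs, SINE2 was set beside BovB and SINE3 beside CR1, after the tails named above, and SINEU beside CR1 as the LINE with most reads. SINE2 had 7.80 reads per BovB read in Brain, 3.81 in Ovary and 1.43 in Liver. Brain was 2.05-fold above Ovary (1.94 to 2.16) and 5.46-fold above Liver (5.12 to 5.82), again from the estimated counts alone. BovB itself, with 6568, 2331 and 1868 reads, was not called in any pair with all reads. Without SINE3 it was 2.02-fold higher in Brain than in Liver (1.92 to 2.13), where 74.1% of 27 subfamilies were called. Its log2 ratio of 1.02 lay below the median of 1.20 over the subfamilies tested. SINE3 had 34.8 reads per CR1 read in Brain, 13.8 in Ovary and 11.8 in Liver, also from the estimated counts alone. SINEU had 0.0217, 0.102 and 0.0175 reads per CR1 read, highest in Ovary again. Against other LINEs the order of Brain and Liver changed for SINE3: Brain was 1.34-fold below Liver per L2 read (1.31 to 1.37), 1.06-fold above it per L1 read (1.04 to 1.09), and the ratio per BovB read was 0.982 (0.933 to 1.03). SINEU was lower in Brain than in Liver against all 3, 3.18-fold per L2 read (2.99 to 3.38), 2.23-fold per L1 read (2.10 to 2.37) and 2.42-fold per BovB read (2.24 to 2.61), while per CR1 read it was 1.24-fold higher (1.18 to 1.31).

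Of the 15 LINE subfamilies, 14 had enough reads in Brain and Ovary, of which 1 was higher and 5 were lower in Brain, against 57.1% called over all subfamilies, and without SINE3 4 were higher and 0 lower, against 37%. In Brain and Liver, 2 of 14 were higher and 3 lower in Brain, against 42.9%, and without SINE3 10 were higher and 0 lower, against 74.1%. In Ovary and Liver, 7 of 13 were higher and 0 lower in Ovary, against 69.2%, and without SINE3 4 were higher and 1 lower, against 60%. The summed LINE share was 2.17-fold lower in Brain than in Ovary (2.16 to 2.19) and 2.10-fold lower in Brain than in Liver (2.08 to 2.11). Without SINE3 it was 1.20-fold higher in Brain than in Ovary (1.19 to 1.21) and 1.14-fold lower in Brain than in Liver (1.14 to 1.15), so the sign between Brain and Ovary turned when SINE3 was left out. Of the list CR1, L2, RTE, BovB and L1, 0 were higher and 3 lower in Brain against Ovary, 0 and 1 in Brain against Liver, and 3 and 0 in Ovary against Liver, beside the same shares over all subfamilies. Without SINE3 the list had 0 called in Brain against Ovary, 3 higher in Brain against Liver and 2 higher in Ovary against Liver. The shares called over all subfamilies were then 37%, 74.1% and 60%.

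The reference of the pipeline named 19207 assembled transcripts, of which 560 (2.92%) were SINEs: 242 of SINE2, 241 of SINE3 and 77 of SINEU. SINE3 had 20746 reads per reference transcript in Brain, 3684 in Ovary and 6009 in Liver, the highest of the 31 subfamilies in each column. Next came ERV3, an endogenous retrovirus group, with 280 in Brain and 320 in Ovary, and ERV2, another such group, with 400 in Liver. How SINE3 reads spread over its 241 transcripts was not analysed here, so these averages need not be typical of single transcripts. The 3 SINE3 transcripts with quantification values averaged 11.7 (brain record), 2.67 (ovary record) and 14.0 reads (liver record). Lengths of most reference transcripts were not used here, so the values per reference transcript are not corrected for length.

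SINE2 and SINEU also stood above the median of the other 28 subfamilies in this order, which was 17.2 reads per reference transcript in Brain, 7.45 in Ovary and 4.36 in Liver. SINE2 was at rank 3 in Brain with 212, between ERV3 and LINEs without a subfamily (78.5), with ERV1 (70.7) after these. It was at rank 9 in Ovary with 36.7, after Copia (47.5) and Gypsy (39.5) and before ERV2 (27.8) and LINEs without a subfamily (18.3). In Liver it was at rank 11 with 11.0, after Pao (15.3) and RTEX (14.3) and before R4-Dong (10.8) and Gypsy (8.29). SINEU was at rank 8 in Brain with 40.5, between Gypsy (63.2) and Pao (57.0) on one side and ERV2 (38.5) and CR1 (24.9) on the other. In Ovary it was at rank 3 with 84.7, just above Pao (83.3) and ERV without a subfamily (72.2). In Liver it was at rank 4 with 27.9, after ERV2 and ERV1 (31.8) and before ERV3 (24.1) and Copia (23.1). SINE2 thus stood higher than SINEU in this order in Brain, and SINEU higher than SINE2 in Ovary and Liver.

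**Figure D4:**
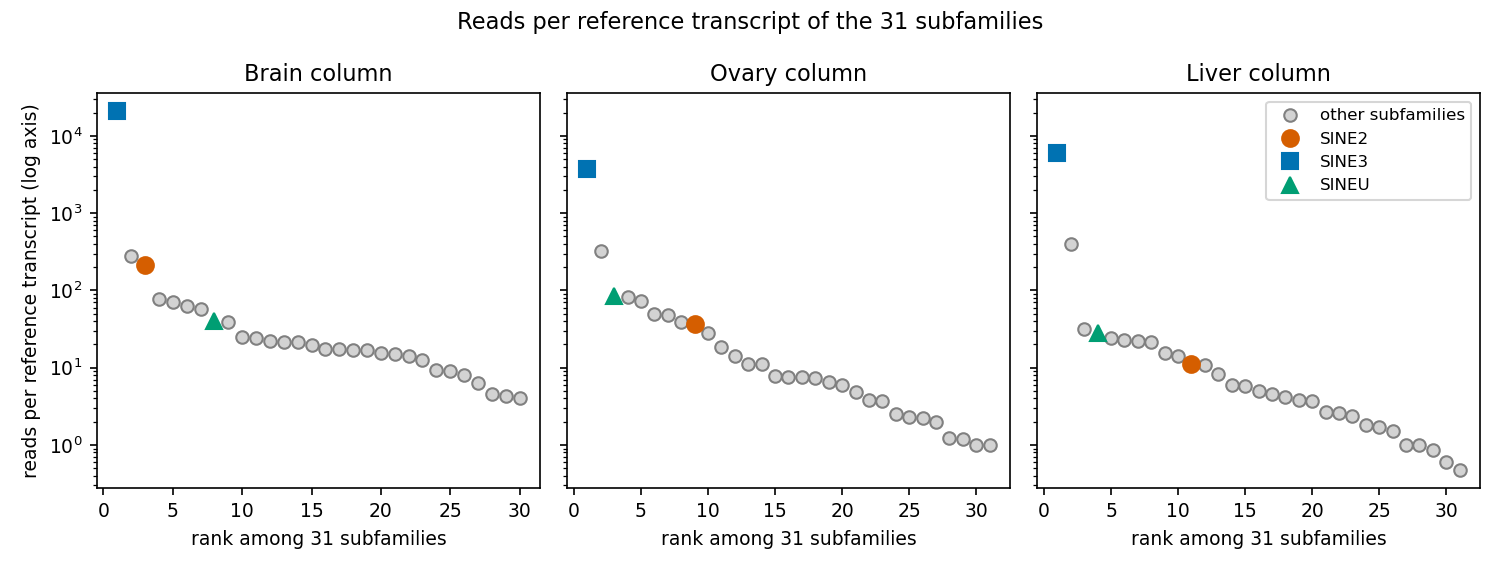
Reads per reference transcript (log axis) of the subfamilies in rank order in each column, with the SINE groups coloured and the other 28 subfamilies in grey; a subfamily with 0 reads in Brain is not drawn. SINE3 leads each column with 20746, 3684 and 6009, SINE2 is at ranks 3, 9 and 11, and SINEU at ranks 8, 3 and 4 in Brain, Ovary and Liver.

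The names of the assembled transcripts, which record the read cluster, the assembly's gene and the isoform, showed how the groups were built up. The 242 SINE2 transcripts fell into 177 assembly genes, or 1.37 transcripts a gene. SINE3 had 241 transcripts in 134 genes (1.80 a gene) and SINEU 77 in 38 genes (2.03 a gene), against 1.21 a gene for LINEs, 1.48 for LTR elements and 1.31 over the whole reference. An isoform number above 1 was found for 36.0% of SINE2, 56.4% of SINE3 and 59.7% of SINEU transcripts, against 24.2% for LINEs and 40.6% for LTR elements, so SINE2 lay between these classes. SINEU was the most concentrated: 16 of its 77 transcripts (20.8%) belonged to 1 read cluster, while the largest cluster held 17 of 241 SINE3 transcripts (7.05%) and 7 of 242 SINE2 transcripts (2.89%). Transcripts with another element name shared no assembly gene with a SINE. They shared a read cluster with SINE2 in 7 cases (4 Pao, 2 CR1 and 1 L2), with SINE3 in 7 cases (3 CR1, 2 L2 and 2 RTEX) and with SINEU in 0 cases.

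The subfamilies most like each SINE group were sought among 27 others with at least 20 reads, by the Euclidean distance between their log2 ratios of Brain to Ovary and of Brain to Liver without SINE3. With 3 libraries this rests on 2 values a subfamily and is a description. Closest to SINE2 (1.65 and 3.47) were CER8-I_CE, an LTR element, at a distance of 1.45, the LINE NeSL at 1.58 and the LINE I at 1.61, none of them close. CER8-I_CE rested on 23 reads in Brain, 6 in Ovary and 3 in Liver. SINEU (-1.94 and -0.26) was closest to the LTR retrotransposon Copia (-1.95 and -0.84) at 0.58, then Pao at 1.45 and ERV1 at 1.68. SINE3, on the same scale at 1.62 and 0.99, was closest to LINEs without a subfamily at 0.39, the LINE R4 at 0.50 and L2 at 0.86. None of the 3 groups thus had another SINE among its nearest 3, where only 2 of the 27 subfamilies compared were SINEs.

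Single SINE transcripts could be followed in the quantification files, which list 5 of the 560 SINE reference transcripts (0.893%). They list 407 of 11848 LINE transcripts (3.44%), 55 of 6302 LTR transcripts (0.873%) and 2.49% of the whole reference. The share of SINEs was thus near that of LTR elements. The 5 SINE transcripts were 217 to 306 bases long, around the file median of 284. They summed to 43 reads (brain record), 8 (ovary record) and 42 (liver record), against 10881, 2996 and 6119 LINE reads. Their shares were 0.262% (0.190 to 0.353), 0.172% (0.0743 to 0.339) and 0.395% (0.285 to 0.533) of the reads of the files. SINE3 reads in these files numbered 35, 8 and 42, far below the SINE3 counts of the subfamily table.

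One SINE3 transcript held most of these reads under the brain and liver records, though not under the ovary record. TRINITY_DN35830_c0_g1_i10, 224 bases long, had 23 reads (brain record), 2 (ovary record) and 39 (liver record). In TPM, which corrects for length, it stood at 6403.5, 1782.6 and 28446.5, rank 26, 103 and 7 of the 480 transcripts. Its share of reads was 2.61-fold lower under the brain record than under the liver record (1.52 to 4.58). Under the ovary record it was 8.52-fold lower than under the liver record, with a wide interval (2.21 to 72.8) that rests on 2 reads. Between the brain and ovary records the ratio was 3.26 (0.806 to 28.5), so the counts gave no direction. It is named as isoform 10 of its assembly gene, and the reference lists 1 isoform of that gene.

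The other SINE3 transcripts had too few reads for a comparison. TRINITY_DN199325_c0_g1_i1, 255 bases long, had 5, 1 and 2 reads under the brain, ovary and liver records, and TRINITY_DN140582_c0_g1_i1, 267 bases long, had 7, 5 and 1. Without the 224-base transcript, each pair of records would hold fewer than 20 SINE3 reads together.

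The SINE2 transcripts were found in brain alone, at low counts. TRINITY_DN252644_c0_g1_i1, 217 bases long, and TRINITY_DN322668_c0_g1_i1, 306 bases long, had 4 reads each in brain, or 0.0244% (0.00664 to 0.0624). Both had 0 reads under the ovary and liver records, where 3 reads, the limit that a count of 0 allows, stand for 0.0645% and 0.0282%. The share of each in brain lies under both limits, so no difference was detectable at this depth. Summed, their 8 reads in brain were 0.0488% (0.0211 to 0.0961), an interval that includes the limits of both the ovary and the liver record.

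**Figure D5:**
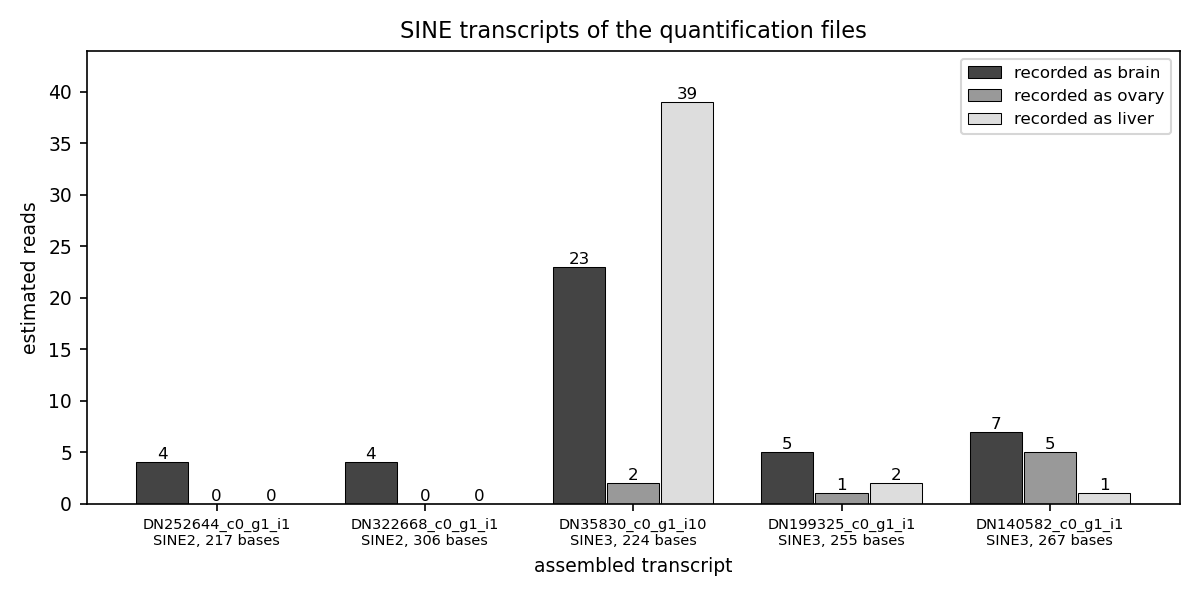
Estimated reads of the 5 SINE transcripts of the quantification files under the brain, ovary and liver records (bars, with the count above each). The SINE3 transcript of 224 bases holds 23, 2 and 39 reads, and each other transcript has 7 reads or fewer in every library.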

How the data were processed

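The values come from 3 unstranded libraries, so an element and a gene on the opposite strand share reads. The authors deposited estimated counts for 31 subfamilies, and log2 CPM for 27 of them with a scaling that no source used here states (base 2 was read from the values). They also deposited estimated counts and TPM per transcript in 1 file a sample, laid out like Salmon output per the file headers. The submitters' processing notes list Bowtie2 2.3.4.1 with no stated role. A deposited reference table names 19207 transcripts. The assembler, the repeat annotation and the quantification version were not given in the sources used here. Sequences were not used here.

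Shares have exact Clopper-Pearson 95% intervals, ratios of shares exact conditional binomial intervals and ratios within a column log-scale (Woolf) intervals, on estimated counts rounded to whole reads (Python 3.11.15, scipy 1.17.1). They cover counting error only, because each tissue has 1 library. PCR copies were not marked and fractional assignment is left out, so they can be too narrow even for counting error. Counts of 0 took a floor of 3 reads. TMM factors came from edgeR 4.0.16 and median-of-ratios factors from DESeq2 1.42.0, with no model fitted. Interval code was tested on simulated data. The SINE rows, all SINE transcripts, the leading LINE, the neighbours in reads per reference transcript and the 3 nearest subfamilies are named. Members and lists were chosen with earlier results of these data known. The pairing of single LINEs with SINE groups and the ratios between SINE groups were chosen after seeing the data.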

Additional observations from a re-analysis of the deposited data

How the results depend on the processing

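No paired analysis was possible because each tissue has 1 library. With reads without SINE3 as the total, the log2 ratio of SINE2 for brain over ovary passed 2-fold (1.65) and that of SINEU for brain over liver no longer did (-0.26). With LINE and LTR reads as the total, SINE3 passed 2-fold for brain over ovary (1.71) and brain over liver (1.14). TMM factors gave 1.30 for SINE2 and 1.27 for SINE3 for brain over ovary, -0.33 for SINE3 for brain over liver, and 0.84, -1.60 and 0.71 for SINE2, SINE3 and SINEU for ovary over liver. Median-of-ratios factors gave 1.15 for SINE2 and 1.12 for SINE3 for brain over ovary, -0.29 for SINE3 for brain over liver, and -1.41 for SINE3 and 0.90 for SINEU for ovary over liver. The deposited log2 CPM gave 0.11, -1.07 and -0.93 for SINE2, SINE3 and SINEU for brain over liver, and -0.30, -1.59 and 0.13 for ovary over liver. The quantification files gave -0.89 and -1.20 for SINE3 for brain over liver and ovary over liver. These are by record, not by column, and rest on 3 of its 241 transcripts, with 35 (brain record), 8 (ovary record) and 42 reads (liver record). The cause of these changes was not tested. Leaving out subfamilies under 20 reads changed no call, and could not, because they hold too few reads to move the totals.

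Counting Penelope as a LINE gave 0.216 SINE2, 21.1 SINE3 and 0.0132 SINEU reads per LINE read in Brain, 0.0814, 8.13 and 0.0597 in Ovary, and 9.55 for SINE3 in Liver. Leaving out CR1 gave 0.604, 59.0 and 0.0368 in Brain, 0.225, 22.4 and 0.165 in Ovary and 0.0967, 52.5 and 0.0778 in Liver. SINE2 and SINE3 were highest in Brain and SINEU in Ovary under both. The transcripts of the quantification files held 4.0, 0 and 0 SINE2 reads and 11.7, 2.67 and 14.0 SINE3 reads per transcript in brain, ovary and liver by record. As TPM, the SINE transcripts summed to 1.07%, 0.594% and 3.02%. With the ovary and liver files exchanged, their shares of reads would be 0.395% for ovary and 0.172% for liver. In the deposited log2 CPM, a choice made after seeing the data, the difference of SINE2 minus SINEU was -0.44 for ovary minus liver, that of SINE3 minus SINE2 was 0.11 for brain minus ovary, and that of SINE3 minus SINEU turned to -0.14 for brain minus liver. Depth limits the single transcripts, with at most 39 reads for any SINE transcript in a library.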
